A study of Mus musculus with 4 samples.

Results

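The Ikaros family comprises 5 genes in the mouse, Ikzf1 to Ikzf5, and the chromatin around them was examined in CD4+ T cells that were driven towards regulatory T cells with or without IL-4. ATAC-seq, in which a transposase cuts and tags DNA that nucleosomes leave free, was the measurement. For each gene, the window was its GENCODE record on GRCm38 (mm10) with 50 kb on each side. Peaks of the 4 lists that shared at least 1 base were merged into regions. The windows held 113 of the 93679 regions in the series, namely 45 at Ikzf1, 20 at Ikzf2, 30 at Ikzf3, 12 at Ikzf4 and 6 at Ikzf5. A region was classed as promoter when it lay within 1 kb of any GENCODE start site, which gave 26 promoter and 87 distal regions.

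All cells were naive CD4+ T cells (CD62Lhigh, CD44low, CD25-) from spleens of wild-type male C57BL/6 mice aged 7 weeks according to the labels. Stimulation lasted 48 h on bound anti-CD3 at 5 µg/ml, with anti-CD28 in solution at 1 µg/ml. The medium held human TGF-β1 at 5 ng/ml and mouse IL-2 at 10 ng/ml in every culture. The iTreg group (2 libraries) received no IL-4 and the iTreg+IL-4 group (2 libraries) received 15 ng/ml of mouse IL-4. Each library was made from 50000 cells. The study describes its samples as independent pools, and the labels name no single animal, so p-values measure the spread between these libraries.

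The genes encode zinc finger transcription factors. In Ikaros, Helios, Aiolos and Eos, fingers near the amino end bind DNA around a GGGAA core. Fingers near the carboxyl end join family members into dimers. Ikaros (Ikzf1) directs lymphocyte development. Helios (Ikzf2) and Eos (Ikzf4) are known from regulatory T cells, where Eos acts with Foxp3 in gene silencing. Aiolos (Ikzf3) is abundant in B cells and in activated T cells, and Pegasus (Ikzf5), which recognises a different site, is expressed in many tissues. Several members recruit histone deacetylase complexes to the genes they bind.

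Own promoters, the regions that held the 5′ end of a gene record, are shown first for 4 of the genes, since the later values refer to them. Each line gives 200 bases of the GRCm38 forward strand at the middle of the merged region. Capitals mark matches to any of 7 short motifs that were searched, which are spelled out with their shares further on. None of these letters was read from the sequenced cells.
Ikzf1 own promoter, chr11:11685439-11685638: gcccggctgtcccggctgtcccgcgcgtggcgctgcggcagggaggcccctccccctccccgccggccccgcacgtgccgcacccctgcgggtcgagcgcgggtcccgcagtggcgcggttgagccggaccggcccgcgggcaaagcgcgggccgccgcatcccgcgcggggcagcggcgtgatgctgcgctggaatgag
Ikzf2 own promoter, chr1:69687470-69687669: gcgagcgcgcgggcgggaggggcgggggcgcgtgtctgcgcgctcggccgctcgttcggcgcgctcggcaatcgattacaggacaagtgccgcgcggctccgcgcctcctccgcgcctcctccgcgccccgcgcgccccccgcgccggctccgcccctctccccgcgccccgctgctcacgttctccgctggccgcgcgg
Ikzf4 own promoter, chr10:128645890-128646089: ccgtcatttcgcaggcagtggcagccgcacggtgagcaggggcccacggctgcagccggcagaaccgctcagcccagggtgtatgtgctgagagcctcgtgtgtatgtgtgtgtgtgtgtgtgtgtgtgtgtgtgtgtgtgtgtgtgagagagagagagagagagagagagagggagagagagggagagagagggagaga
Ikzf5 own promoter, chr7:131410391-131410590: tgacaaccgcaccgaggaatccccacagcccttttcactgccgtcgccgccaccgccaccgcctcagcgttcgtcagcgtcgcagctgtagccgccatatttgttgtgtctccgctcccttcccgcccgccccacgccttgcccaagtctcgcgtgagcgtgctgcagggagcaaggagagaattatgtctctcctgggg
The window at Ikzf4 ends in a long repeat of TG and AG. None of the 4 holds any of the searched motifs.

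The next group shows distal regions that stood near the top of every list. They were the best-ranked distal regions inside the records of Ikzf1, Ikzf2 and Ikzf4, all in introns of the principal transcript.
Ikzf1 intron 3, chr11:11725981-11726180: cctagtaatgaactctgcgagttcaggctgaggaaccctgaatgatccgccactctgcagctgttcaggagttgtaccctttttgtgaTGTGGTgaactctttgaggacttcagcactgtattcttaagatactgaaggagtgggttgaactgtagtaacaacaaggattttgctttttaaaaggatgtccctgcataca
Ikzf2 intron 6, chr1:69544328-69544527: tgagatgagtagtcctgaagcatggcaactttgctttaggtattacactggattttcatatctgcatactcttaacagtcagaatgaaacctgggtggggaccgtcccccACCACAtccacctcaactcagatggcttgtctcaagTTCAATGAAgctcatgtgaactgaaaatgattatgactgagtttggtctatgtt
Ikzf4 intron 5, chr10:128636955-128637154: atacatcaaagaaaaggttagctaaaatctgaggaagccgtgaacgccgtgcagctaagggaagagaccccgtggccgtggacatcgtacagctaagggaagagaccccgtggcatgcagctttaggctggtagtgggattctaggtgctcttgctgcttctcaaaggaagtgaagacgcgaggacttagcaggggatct
The first holds the RUNX motif TGTGGT, the second its reverse complement ACCACA beside TTCAATGAA, a STAT5-type motif (TTC and GAA with 3 bases between), and the third none of the searched motifs.

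The last group shows regions whose calls followed the group labels. The first 3 had calls in the 2 iTreg+IL-4 libraries alone, and the last had calls in the 2 iTreg libraries alone.
Ikzf1 intron 3, with IL-4, chr11:11711827-11712026: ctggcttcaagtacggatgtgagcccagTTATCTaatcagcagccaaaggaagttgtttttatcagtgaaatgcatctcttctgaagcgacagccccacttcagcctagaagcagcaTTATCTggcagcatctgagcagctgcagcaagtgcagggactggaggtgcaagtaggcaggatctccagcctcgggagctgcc
Ikzf3 intron 3, with IL-4, chr11:98504989-98505188: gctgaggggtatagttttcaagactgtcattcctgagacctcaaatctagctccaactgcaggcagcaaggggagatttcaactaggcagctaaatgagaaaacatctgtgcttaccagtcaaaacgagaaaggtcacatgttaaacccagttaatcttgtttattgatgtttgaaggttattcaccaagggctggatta
Ikzf3 coding exon 5, with IL-4, chr11:98488880-98489079: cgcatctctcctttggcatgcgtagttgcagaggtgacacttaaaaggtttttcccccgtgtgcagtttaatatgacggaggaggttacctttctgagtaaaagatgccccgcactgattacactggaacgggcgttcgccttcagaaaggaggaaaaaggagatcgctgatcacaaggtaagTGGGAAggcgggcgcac
Ikzf1 intron 3, without IL-4, chr11:11740673-11740872: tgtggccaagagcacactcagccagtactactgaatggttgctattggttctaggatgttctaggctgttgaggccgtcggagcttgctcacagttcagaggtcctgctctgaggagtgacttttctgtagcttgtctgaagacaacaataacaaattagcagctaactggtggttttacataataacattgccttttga
The Ikzf1 region with IL-4 holds 2 copies of TTATCT, the reverse complement of the GATA motif AGATAA. The exonic Ikzf3 region holds the Ikaros motif TGGGAA, and the remaining pair hold none of the searched motifs.

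Open chromatin was spread unevenly over the family. Ikzf1 lay in a window of 187.9 kb with 45 regions, more than 99.7% of the 21884 protein-coding genes had in windows built the same way. Its 21 distal regions called in all 4 libraries came to 11.2 per 100 kb, against a median of 1.53 over all coding genes. Ikzf3 followed with 30 regions in 181.1 kb and 13 such distal regions (7.18 per 100 kb). Ikzf2, the longest record of the family at 156.0 kb, had 20 regions in 256.0 kb and 9 such distal regions (3.52 per 100 kb). Ikzf4 had 12 regions in 115.1 kb with 4 such distal regions, and Ikzf5 had 6 regions in 121.9 kb with 1. Long genes have wider windows, and 86.9% of coding genes were shorter than Ikzf1. The map of called regions along each locus shows these positions for every library.

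**Figure D1:**
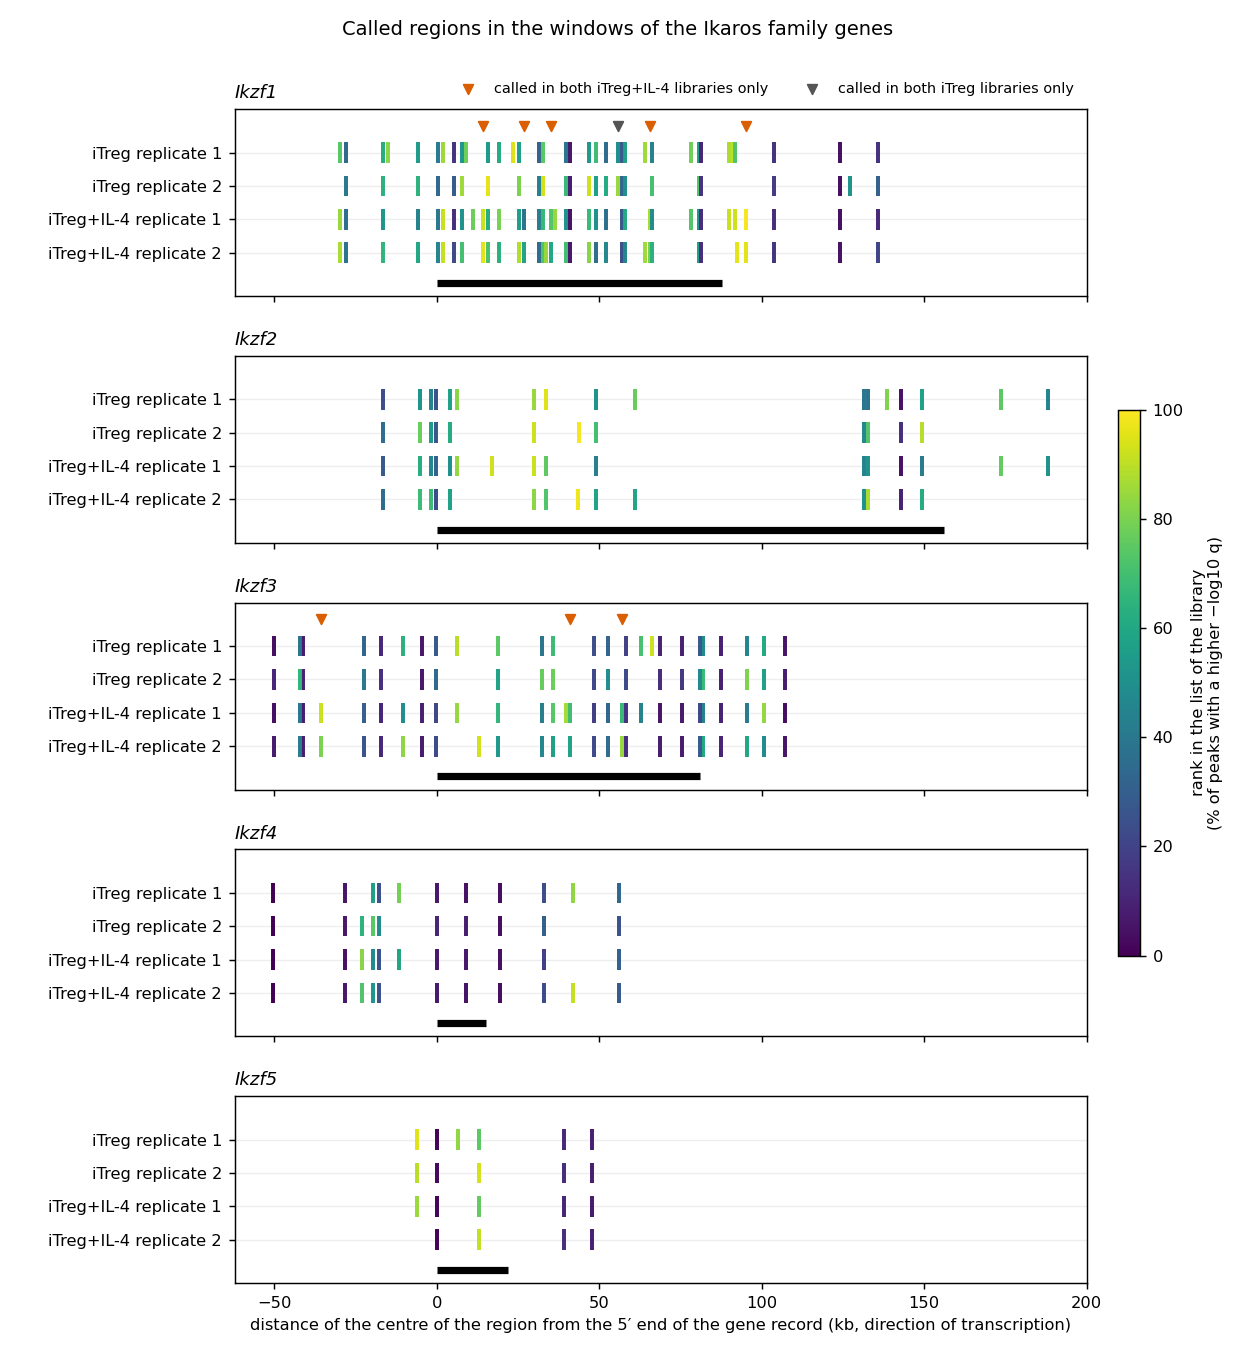
Regions called in the window of each gene, plotted by the distance of their centre from the 5′ end of the gene record (kb, direction of transcription), 1 row per library. Colour gives the rank in the list of that library as the percentage of peaks with a higher −log10 q (0 is the top), the black bar is the gene record, and triangles mark regions called in the 2 libraries of a single group. The 8 orange triangles lie at Ikzf1 and Ikzf3, and the grey one at Ikzf1.

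The 4 libraries differed in how many of the 113 regions they called. iTreg replicates 1 and 2 called 94 and 73, and iTreg+IL-4 replicates 1 and 2 called 96 and 89. iTreg libraries averaged 83.5 ± 14.8 (SD, n = 2) and iTreg+IL-4 libraries 92.5 ± 4.95 (SD, n = 2). The difference of 9 regions was smaller than the SD of the iTreg replicates (exact permutation test, two-sided, p = 0.667). With 2 libraries a group, the smallest p of this exact test is 0.333. With lists of equal length the libraries called 70, 73, 71 and 75 regions in the same order, a difference of 1.5, and with the upper 50% of each list the difference was 4. Without iTreg replicate 2 the difference was -1.5, and that list was also the shortest of the series with 56645 peaks against 77064, 78670 and 67743. At Ikzf3 the counts did not overlap, with 25 and 21 regions in iTreg replicates 1 and 2 and 28 and 26 in iTreg+IL-4 replicates 1 and 2 (exact permutation p = 0.333, adjusted p = 1 over the 5 loci). At Ikzf1 they were 35 and 25 without and 36 and 34 with IL-4, at Ikzf2 17 and 12 against 16 and 14, at Ikzf4 11 and 10 against 11 and 11, and at Ikzf5 6 and 5 against 5 and 4. How often windows of other genes had counts without overlap was not tested. With lists of equal length, counts are given for the 5 loci together only. Bases inside peaks over the 5 windows numbered 57105 and 44258 in iTreg and 59435 and 53117 in iTreg+IL-4 libraries (exact permutation p = 0.667). Read numbers are not held in the lists, so a region without a peak is one where enrichment was not detectable at an unknown depth. In such bulk libraries, fewer cells open at a site and less opening per cell cannot be told apart.

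Of the 113 regions, 68 (60.2%) were called in all 4 libraries. Among promoter regions this held for 20 of 26 (76.9%), close to the 73.3% of all promoter regions in the series. Among distal regions it held for 48 of 87 (55.2%), against 43.7% of all distal regions. Another 17 regions (15%) were called in a single library, against 21.6% in the series. The most frequent mixed pattern was a call in both libraries numbered 1 and neither numbered 2, with 9 regions (7.96%, against 7.6% in the series).

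Ranks were used to compare strength within a list. The rank is the percentage of peaks in the same list with a higher −log10 q, so that 0 is the top. The own promoters differed widely, although all 5 were called in all 4 libraries. The promoter of Ikzf5, shared with the divergent gene Acadsb, stood below only 1.17% and 2.06% of the peaks in iTreg replicates 1 and 2 and 1.21% and 1.17% in iTreg+IL-4 replicates 1 and 2. The promoter of Ikzf4 followed with 6.05% and 9.8% without and 6.43% and 7% with IL-4. By −log10 q, neither overlapped with any other own promoter of the family. Ikzf2 had 25% and 27.2% without and 30.1% and 22.9% with IL-4, a range that overlapped with that of Ikzf3. Ikzf1 came last with 41.7% and 33.6% without and 39.9% and 45.6% with IL-4, and it touched the range of Ikzf3 by its lowest value alone. The overlaps differed by height. Ikzf3, with 10.9% and 14.8% without and 7.94% and 8.89% with IL-4, then overlapped with Ikzf4 (6.16%, 9.72%, 6.39% and 7.15%). It did not overlap with Ikzf2 (19.9%, 21.2%, 23.8% and 18.6%), and Ikzf1 (24.1%, 22.1%, 30.3% and 25.4%) overlapped with Ikzf2. These regions were 842 (Ikzf5), 1527 (Ikzf4), 1222 (Ikzf2), 1105 (Ikzf3) and 1716 bases (Ikzf1) wide, and ranks were not scaled for width.

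The promoter of Ikzf3 was the single own promoter of 5 whose ranks by −log10 q did not overlap between the groups. In the series, 19.8% of promoter regions called in all 4 libraries were nearer the top with IL-4 without overlap and 5.4% further. The Ikzf3 promoter stood below 27.5% and 33.7% of peaks in iTreg replicates 1 and 2 and below 21.4% and 22.6% in iTreg+IL-4 replicates 1 and 2. The mean with IL-4 was nearer the top (iTreg+IL-4 minus iTreg -8.63 points, exact permutation test, two-sided, p = 0.333, adjusted p = 1 over the 5 promoters). Ranked by height the difference was -4.46 points (p = 0.333, exact). Ranked against only those regions that all 4 libraries called, it was -8.41 points (p = 0.333, exact). For Ikzf1 the difference was 5.13 points by −log10 q (p = 0.667, exact), with overlapping groups. By height the Ikzf1 groups did not overlap, with 24.1% and 22.1% without and 30.3% and 25.4% with IL-4 (difference 4.74, p = 0.333, exact). Over all regions called in all 4 libraries, 4.42% were further from the top by height without overlap and 20.4% nearer. Differences at Ikzf2 (0.445), Ikzf4 (-1.21) and Ikzf5 (-0.423 points) were smaller than the SD of the iTreg replicates (1.53, 2.65 and 0.634) and the groups overlapped (p = 1, exact). Ranked among regions called in all 4 libraries, the difference was 11.1 points at Ikzf1 (p = 1, exact) and 4.63 at Ikzf2 (p = 0.667, exact). Without iTreg replicate 2 the difference by −log10 q at Ikzf1 was 1.09 points, and without iTreg replicate 1 it was 9.18.

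**Figure D2:**
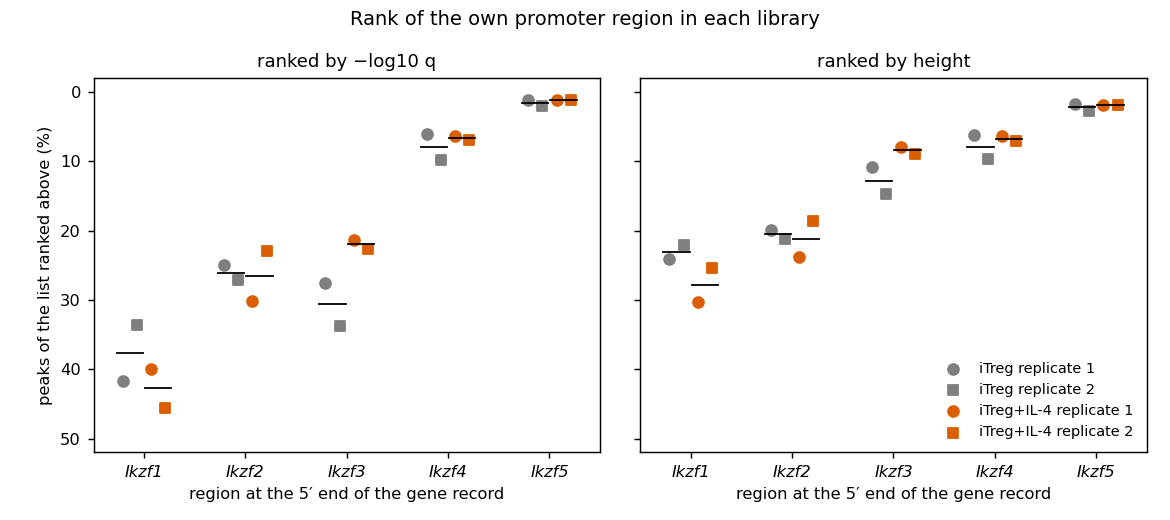
Rank of the region at the 5′ end of each gene record in each library, as the percentage of peaks of the same list ranked above it, by −log10 q on the left and by height on the right. Points are libraries, short lines are means of 2, and the axis runs from the top of the list downwards. Ikzf5 lies highest in both panels, and the iTreg+IL-4 points of Ikzf3 lie above its iTreg points.

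Ikzf1 encodes Ikaros, the founding member of the family. Its record runs from 11685003 to 11772926 on the forward strand of chromosome 11, and the own promoter region chr11:11684681-11686396 also holds a start site of the noncoding gene Gm11999. A second region with an Ikzf1 start site, at chr11:11686625-11686942, stood by −log10 q below 85.1%, 91.5% and 91.1% of peaks in iTreg replicate 1 and iTreg+IL-4 replicates 1 and 2, and iTreg replicate 2 had no peak there. By height it stood below 38.5%, 41.8% and 41%. Of 2 Ikzf1 promoters in the RefSeq table, one fell in the own promoter and the other in the region chr11:11689923-11690836 in intron 1. GENCODE gives no start site near that region, so it was counted as distal here. It was stronger than the own promoter in all 4 libraries, with 15% and 28.5% of peaks above it without and 13.7% and 22.5% with IL-4.

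Within the gene, the strongest region was chr11:11725289-11726873 in intron 3, 41.1 kb from the 5′ end, 1585 bases wide. Only 6.26% and 7.64% of peaks without and 4.72% and 6.41% with IL-4 ranked above it. The next distal regions in the window were chr11:11766080-11766655 in intron 7 (10.8%, 14.7%, 12.6% and 12.9% in iTreg replicates 1 and 2 and iTreg+IL-4 replicates 1 and 2) and chr11:11788519-11789002 inside the neighbour Fignl1 (14.3%, 17.3%, 13.1% and 15.3%). Ranks of all 3 within the full lists overlapped between the groups. Among regions called in all 4 libraries, the one in intron 7 did not overlap (17.3% and 17.3% without, 20.7% and 18.2% with IL-4). Of the 41 distal regions in the Ikzf1 window, 21 were called in all 4 libraries, with a median difference between groups of -3.65 points against -3.18 over all distal regions of the series.

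Of the 45 Ikzf1 regions, 5 (11.1%) had calls in the 2 iTreg+IL-4 libraries alone, against 2.6% of all regions in the series. The strongest was chr11:11711780-11712074 in intron 3, 26.9 kb from the 5′ end, below 37.9% and 58% of peaks in iTreg+IL-4 replicates 1 and 2. With lists of equal length it alone of the 5 kept the pattern. The share over the family windows was then 2.3%, against 1.92% in the series. The others lay in intron 1 (chr11:11699050-11699530, 92% and 95.4%), intron 3 (chr11:11719861-11720046, 72.7% and 59.9%), intron 4 (chr11:11750271-11750647, 86.9% and 79.6%) and downstream of the gene (chr11:11779931-11780387, 98.6% and 95.7%). By height, the first of these stood below 59.4% and 61.7% of peaks and the last below 75.6% and 78.8%. The only region with the opposite pattern in the family (1 of 113, series 0.699%), chr11:11740616-11740929 in intron 3, lay 55.8 kb from the 5′ end and stood below 49.6% and 84.4% of peaks in iTreg replicates 1 and 2.

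Ikzf2 encodes Helios and lies on the reverse strand of chromosome 1 from 69531214 to 69687245. Its 2 own-start regions were both called in all 4 libraries. Beside the promoter at the 5′ end (chr1:69686959-69688180), a region over coding exon 3 at a start site within the gene (chr1:69683100-69683413) stood below 57.4% and 61.6% of peaks without and 49.9% and 57.6% with IL-4. The strongest distal region of the window was far from the promoter, 142.8 kb into the gene at chr1:69544143-69544713 in intron 6. It stood below 4.62% and 13.9% of peaks without and 4.58% and 9.09% with IL-4. A region 16.5 kb upstream (chr1:69703367-69704141) had 23.7%, 35%, 27.4% and 35% above it in iTreg replicates 1 and 2 and iTreg+IL-4 replicates 1 and 2. One in intron 5 (chr1:69555555-69556059) had 39.4%, 45.9%, 44.1% and 50.3%. No region of the Ikzf2 window was called in both libraries of a single group alone (0 of 20, series 2.6% with and 0.699% without IL-4). None of its 11 regions called in all 4 libraries had ranks by −log10 q that did not overlap between the groups, where 19.7% were nearer and 5.18% further in the series. By height, the region over exon 3 did not overlap (39.2% and 40.7% without, 37.2% and 38% with IL-4, series 20.4% nearer and 4.42% further). When ranks were taken among the regions called in all 4 libraries, the last 2 of these and another one, 1.8 kb upstream of the 5′ end, were further from the top in both iTreg+IL-4 libraries (by 7.33, 11.1 and 13.3 points), and 1 region over the untranslated part of exon 8 was nearer (-15.8 points). Under that ranking, 12.7% of regions in the series were further and 14.3% nearer.

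Ikzf3 encodes Aiolos and lies on the reverse strand of chromosome 11 from 98464902 to 98546031. It had 4 regions at start sites of its own, of which 3 ranked nearer the top in both iTreg+IL-4 libraries (series 19.8% of promoter regions called in all 4) and 1 was called only with IL-4 (series 1.36% of promoter regions). The own promoter at chr11:98545743-98546847 was described above. The region chr11:98487558-98488131 in intron 5 stood below 19.2% and 22.4% of peaks in iTreg replicates 1 and 2 and 14.4% and 12.8% in iTreg+IL-4 replicates 1 and 2 (difference -7.25 points). The region chr11:98476775-98477940 in intron 6 had 9.71% and 12.7% above it without and 5.65% and 7.64% with IL-4 (difference -4.56 points). It ranked above the promoter at the 5′ end in all 4 libraries. The last, chr11:98488845-98489115 over coding exon 5, had a peak only with IL-4, below 67.4% and 84.7% of peaks. The first 3 were also nearer the top with IL-4 without overlap when ranked by height or against only the regions that all 4 libraries called. In the series this held for 20.4% of regions called in all 4 libraries by height and for 13% of such promoter regions by the other ranking. When the lists were cut to equal length, the last had a call in iTreg+IL-4 replicate 1 alone.

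Mean ranks in the Ikzf3 window were mostly nearer the top with IL-4, within what 2 libraries a group can show. Its 21 regions called in all 4 libraries included the 3 own-start regions described above. Of the 21, 18 (85.7%) had a mean rank nearer the top with IL-4, against 73.3% of all regions called in all 4 libraries in the series. The counts were 14 of 23 at Ikzf1, 5 of 11 at Ikzf2, 7 of 9 at Ikzf4 and 4 of 4 at Ikzf5. In the short list of iTreg replicate 2, regions called in all 4 libraries had a median rank of 42.5%, against 30.7% to 35.5% in the other lists. With ranks among regions called in all 4 libraries, the share was 15 of 21 (71.4%) at Ikzf3, 12 of 23 (52.2%) at Ikzf1, 5 of 11 (45.5%) at Ikzf2, 5 of 9 (55.6%) at Ikzf4, 1 of 4 (25%) at Ikzf5 and 49.5% over the series. The median difference was then -3.56 points at Ikzf3, -0.114 at Ikzf1, 4.63 at Ikzf2, -0.132 at Ikzf4 and 0.36 at Ikzf5, against 0.0283 over the series. Among the 13 distal regions of the Ikzf3 window called in all 4 libraries, 12 (92.3%, series 73.3%) had a mean rank within the full lists nearer the top. Only 2 of these 13 (15.4%) were nearer without overlap between the groups, below the 19.7% of such distal regions in the series. Neighbouring regions share a locus and are not replicates, so these shares describe the libraries.

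By their weakest library, the 3 best-ranked distal regions of the Ikzf3 window lay outside the gene. The region chr11:98595611-98596444 at the upstream edge had 3.24%, 10.3%, 3.6% and 7.29% of peaks above it in iTreg replicates 1 and 2 and iTreg+IL-4 replicates 1 and 2. The region chr11:98457272-98459595, 2324 bases wide and just downstream of the gene, had 9.2%, 8.84%, 9.56% and 9.99%. The region chr11:98562960-98563536, 17.2 kb upstream, had 11%, 13.3%, 10.6% and 11.3%. In intron 7, chr11:98469800-98471082 had 9.18%, 15.7%, 7.04% and 8.05%, a better mean rank than the one before it, and its groups did not overlap. By rank within the full lists, the downstream region was the single distal region of the family further from the top in both iTreg+IL-4 libraries, by 0.76 points. Ranked among regions called in all 4 libraries it was not, and 5 other distal regions of 48 were (10.4%, series 12.5%). Regions called only with IL-4 lay in intron 3 (chr11:98504971-98505206, below 69.2% and 57.9% of peaks) and inside the neighbour Ormdl3 (chr11:98581757-98582001, below 91.9% and 80.2%).

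Ikzf4 encodes Eos and lies on the reverse strand of chromosome 10 from 128630843 to 128645991 in GENCODE. Its own promoter chr10:128645227-128646753 covers the untranslated first exon. The strongest distal region, chr10:128636616-128637493 in intron 5, stood below 4.34% and 8.25% of peaks without and 6.32% and 5.07% with IL-4. Its range overlapped with that of the promoter of the gene, and the groups overlapped. A region 32.9 kb downstream of the 5′ end (chr10:128612581-128613521) had 23% and 29.6% above it without and 18.1% and 22.4% with IL-4, without overlap (difference -6.01 points). A region 17.7 kb upstream (chr10:128663165-128664307) had 24.4%, 48.3%, 25.1% and 25.7%, with iTreg replicate 2 apart from the other 3 libraries. None of the 12 regions was called in both libraries of one group and neither of the other, a pattern that 2.6% of regions in the series had with IL-4 and 0.699% without. The window also held the promoters of Rab5b, Rps26 and Suox, and the one of Rab5b was the best-ranked of the 113 regions, below 0.0753% to 0.219% of peaks. It reached over the edge of its window, as did the upstream region of Ikzf3 near 50 kb, and both were counted.

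Ikzf5 encodes Pegasus and lies on the reverse strand of chromosome 7 from 131388652 to 131410521. Its promoter (chr7:131410070-131410911) was the strongest own promoter of the family, yet the window was the sparsest. The single distal region called in all 4 libraries, chr7:131397354-131397854 in intron 1, was weak in each, with 74.7%, 93.7%, 75.8% and 91.2% of peaks above it. The remaining regions called in all 4 were the promoters of 2310057M21Rik and Pstk. No region (0 of 6) was called in both libraries of one group and neither of the other (series 2.6% with and 0.699% without IL-4).

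Across the windows, regions with calls in the 2 iTreg+IL-4 libraries alone made up 7 of 87 distal regions (8.05%), where the series had 3.01%. Among promoter regions they were 1 of 26 (3.85%), where the series had 1.36%. Regions with calls in the 2 iTreg libraries alone were 1 of 87 distal regions (1.15%, series 0.798%) and 0 of 26 promoter regions (series 0.397%). All lay at Ikzf1 or Ikzf3. The windows of the Runx1, Runx2, Runx3 and Cbfb genes, another family of lymphocyte transcription factors, held 5 such regions with IL-4 among 139 (3.6%) and 0 without. Many of these calls depended on the length of the lists. When each list was cut to its 56645 highest peaks, 2 of 87 regions (2.3%, series 1.92%) had calls only with IL-4, the ones in intron 3 of Ikzf1 and intron 3 of Ikzf3 shown above. The region called only without IL-4 remained. With the upper 50% of each list neither pattern occurred.

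Non-overlapping ranks were counted among the 68 regions called in all 4 libraries. Nearer the top in both iTreg+IL-4 libraries were 3 of 20 promoter regions (15%, series 19.8%) and 8 of 48 distal regions (16.7%, series 19.7%). Further from the top were 2 of 20 promoter regions (10%, series 5.4%) and 1 of 48 distal regions (2.08%, series 5.06%). These shares lay near the background, and the promoter regions nearer the top were the 3 own-start regions of Ikzf3. The promoter regions further from the top were those of the neighbours Zpbp2 (1.93 points) and Fignl1 (0.628 points). Ranked among regions called in all 4 libraries, 11 regions were nearer (16.2%, series 14.3%) and 8 further (11.8%, series 12.7%), and with lists of equal length 9 of 60 were nearer (15%, series 14%) and 10 further (16.7%, series 12.5%). Leaving out iTreg replicate 2 gave 15 nearer (20.5%, series 24.3%) and 30 further (41.1%, series 36%). Leaving out iTreg replicate 1 gave 49 nearer (71%, series 70.8%) and 6 further (8.7%, series 9.94%).

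The largest of these differences among distal regions were in introns of Ikzf1 and near Ikzf4. At chr11:11733886-11734383 in intron 3 of Ikzf1, 68.6% and 56.4% of peaks ranked above without and 51% and 36.3% with IL-4 (difference -18.8 points). This region held TTCAAATGAA, the STAT6-type motif (TTC and GAA with 4 bases between), and beside it TGGGAA. It was not among the 11 regions when ranks were taken among regions called in all 4 libraries. The next was chr10:128665401-128665661, 19.5 kb upstream of Ikzf4, with 56.2% and 74.1% without and 47.7% and 52.3% with IL-4 (-15.1 points). Another 2 lay in Ikzf1, at chr11:11717559-11717956 (-14.1 points) and chr11:11765449-11765712 (-9.95 points), and one upstream of Ikzf3 at chr11:98568221-98568596 (-8.37 points). These held motifs too, RUNX in the former Ikzf1 region, STAT6-type in the latter, and STAT5-type and RUNX upstream of Ikzf3. The region upstream of Ikzf4 held STAT5-type and GATA motifs. Of all distal regions of the windows 6.9% held the STAT6-type motif, against 6.45% in the series. Ranked among regions called in all 4 libraries, the region upstream of Ikzf3 was no longer among those without overlap. The one upstream of Ikzf4 then differed by -10.1 points, and the latter pair of Ikzf1 by -5.87 and -4.48. The exact permutation test for any single region cannot go below p = 0.333.

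**Figure D3:**
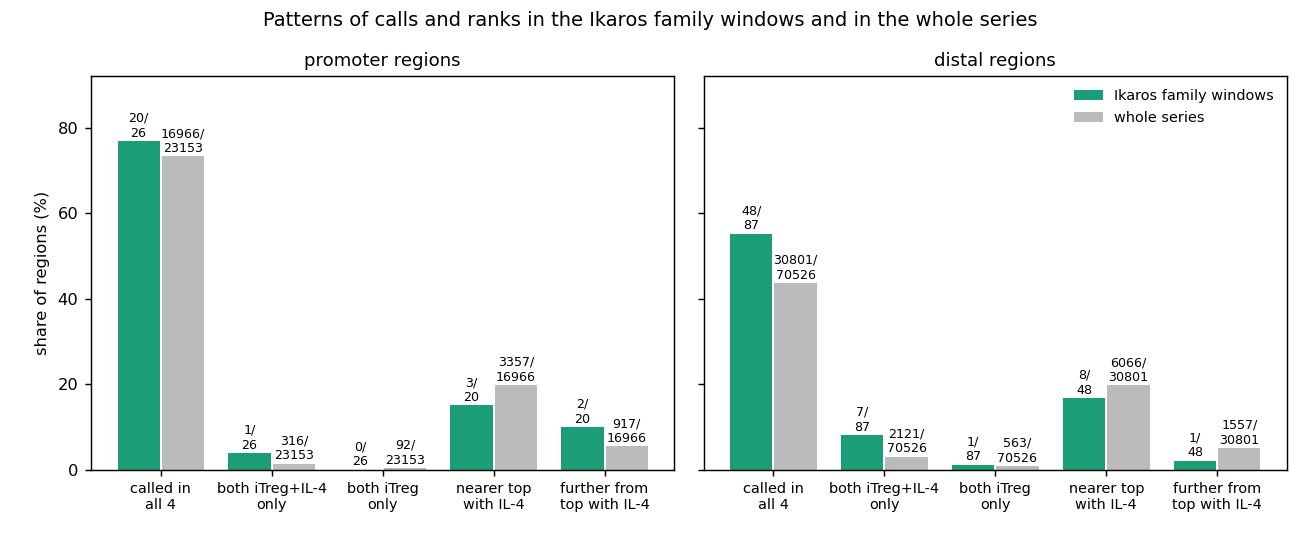
Share of regions with each pattern in the Ikaros family windows (green) and in the whole series (grey), for promoter regions on the left and distal regions on the right, with the counts printed above the bars. The first 3 patterns are shares of all regions, and the last 2 are shares of regions called in all 4 libraries. Distal regions called in both iTreg+IL-4 libraries only stand at 8.05% in the windows and 3.01% in the series. With lists of equal length, which are not drawn, the share over both classes was 2.3% in the windows and 1.92% in the series.

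Over whole windows, the choice between −log10 q and height mattered more at Ikzf1 than at the other loci. Height is the pileup at the top of the peak, while −log10 q compares that pileup with its background. Over regions called in all 4 libraries, the rank by −log10 q minus the rank by height had a median of -1.63 points in the series. At Ikzf1 the median was 10.6 points, and 12 of 23 regions (52.2%) had a gap over 10 points, against 7.85% in the series. The share was 3 of 11 at Ikzf2 (27.3%), 3 of 21 at Ikzf3 (14.3%), 1 of 9 at Ikzf4 (11.1%) and 0 of 4 at Ikzf5. Of the 23 regions, 16 stood lower by −log10 q than by height and 7 higher. At the Ikzf1 promoter the values were 41.7%, 33.6%, 39.9% and 45.6% by −log10 q and 24.1%, 22.1%, 30.3% and 25.4% by height in the same libraries. Among own promoters, the mean gap was 14.7 points at Ikzf1, 15.7 at Ikzf3, 5.45 at Ikzf2, -0.0378 at Ikzf4 and -0.665 at Ikzf5. By height, all 21 distal regions of Ikzf1 that were called in all 4 libraries had a mean rank nearer the top with IL-4, against 14 of 21 by −log10 q and 75.6% of such distal regions in the series by height.

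**Figure D4:**
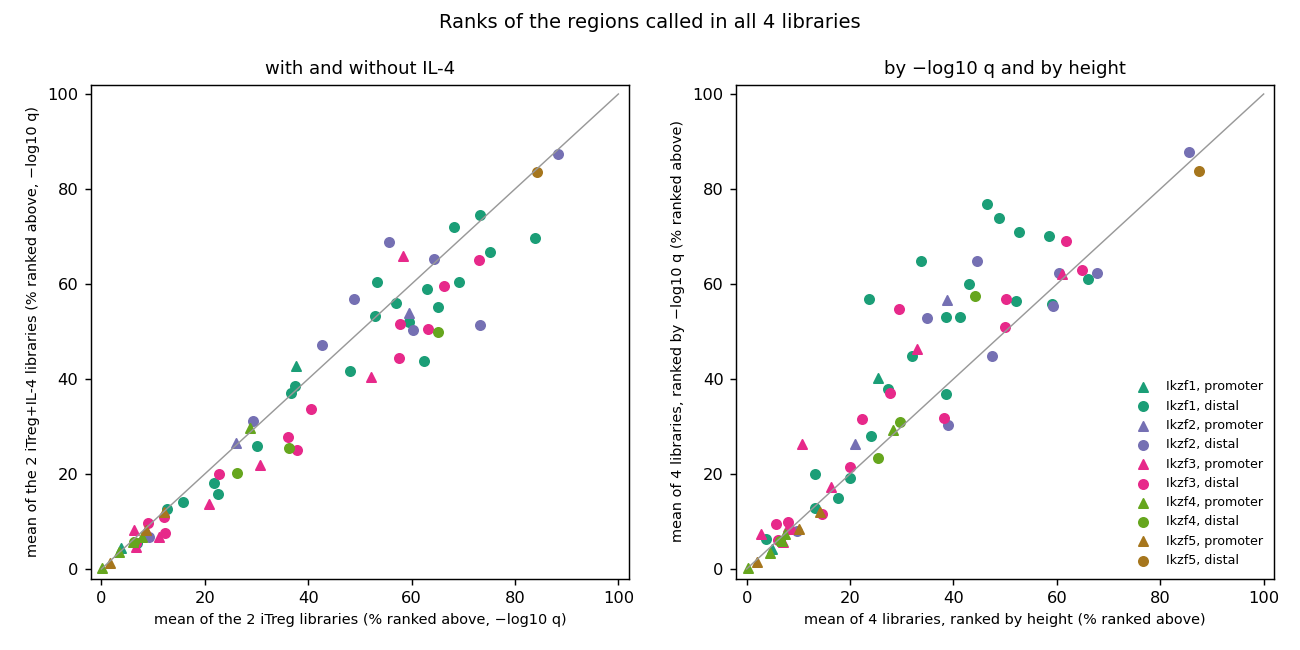
Ranks of the 68 regions called in all 4 libraries, each point a region coloured by locus, triangles for promoter and circles for distal regions. Left, mean of the 2 iTreg+IL-4 libraries against the mean of the 2 iTreg libraries, with points under the grey line of equality nearer the top with IL-4, and 18 of the 21 points of Ikzf3 under it. Right, mean rank by −log10 q against mean rank by height over 4 libraries, with points of Ikzf1 above the line of equality by a median of 10.6 points.

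Motif letters were searched on both strands within 200 bases at the middle of every region. The Ikaros motif TGGGAA, known as a binding site of Ikaros, was in 18 of 87 distal regions (20.7%, 95% Wilson interval 13.5 to 30.4), and 14.8% of all distal regions held it. Among promoter regions it was in 5 of 26 (19.2%, interval 8.51 to 37.9, series 13.6%). RUNX (TGTGGT) was in 24.1% of distal regions (series 24%), AP-1 (TGA and TCA with 1 base between) in 13.8% (series 15.1%) and the GATA motif, spelled AGATAA, in 10.3% (series 8.96%). The STAT5-type motif TTCNNNGAA was in 6.9% (series 9.43%), and the STAT6-type motif TTCNNNNGAA in 6.9% (series 6.45%). Among promoter regions the STAT6-type motif was in 3 of 26 (11.5%, interval 4 to 29, series 3.97%), and in windows of 400 bases in 6 of 26 (23.1%, interval 11 to 42.1, series 7.74%). The CTCF-type motif CCANNAGNNGGC was in 1 of 87 distal regions (1.15%, interval 0.203 to 6.23), while 7.85% of all distal regions held it. In windows of 400 bases it was in 6.9%, against 10.8%. Of the 8 regions called only with IL-4, 0 held the STAT6-type motif (interval 0 to 32.4%), where 13.1% of all such regions in the series did. In windows of 400 bases 1 did (12.5%, series 22.5%). TGGGAA was in 3 of the 8 (37.5%, interval 13.7 to 69.4, series 14.1%). GAA ends both TGGGAA and the STAT-type motifs, so these matches can overlap. The median GC content of the distal windows was 46% (series 48%), and intervals cover counting error only. A match is a run of letters and was not tested for binding.

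Partners through which Ikaros proteins are known to act were described in the same way. Of 19 such genes, 18 had a promoter peak in all 4 libraries, where 59.9% of coding genes did. They included the deacetylases Hdac1 (2.1% and 3.45% of peaks above without, 2.48% and 2.88% with IL-4) and Hdac2 (8.34% and 8.15% without, 6.98% and 7.46% with IL-4). Chd4, the remodelling ATPase of the NuRD complex, had 17.8% and 20.5% without and 20.1% and 16.9% with IL-4. Crbn, which encodes cereblon, the ubiquitin ligase receptor that binds Ikaros and Aiolos when thalidomide analogues are present, had 8.88% and 10.6% without and 7.87% and 8.03% with IL-4. Chd3 had a peak in iTreg replicate 1 alone. Among these 18, best promoter ranks were nearer the top with IL-4 without overlap for 4 (22.2%) and further for 2 (11.1%). The former were Mbd3, Hdac2, Ctbp2 and Crbn. The latter were Smarca4 (2.1% and 2.17% without, 3.93% and 3.05% with IL-4) and Gatad2a (0.187% and 0.237% without, 0.287% and 0.304% with IL-4). Of the 13112 coding genes with a promoter peak in all 4 libraries, 20% were nearer and 5.61% further.

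The coding genes whose best promoter rank ran closest to each member over the 4 libraries were listed without regard to function. They were Kdm5b and Slc35d1 for Ikzf1 (mean absolute difference 1.44 and 2.06 points), and Tmem242 and Raver2 for Ikzf2 (0.444 and 1.04). For Ikzf3, taken at its best start site in intron 6, they were Zscan22 and Ap1g2 (0.554 and 0.595). Tmem179b and Jarid2 followed Ikzf4 (0.176 and 0.209), and Acadsb (0, the shared promoter) and Mvd (0.0303) followed Ikzf5.

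The labelled cell type was checked by promoter peaks of defining genes. All 9 T cell genes, among them Cd3e, Cd4 and Lck, had one in all 4 libraries, where 59.9% of all coding genes did. Cd3e had 13.5% and 17.8% of peaks above it without and 12.4% and 15.5% with IL-4. For Lck the values were 7.47%, 12.9%, 9.01% and 11.6%, and for Cd4 66.3%, 88%, 65.5% and 72.3%, in the same order. Of other lineages, 1 of 5 genes of CD8 T and NK cells (Cd8b1), 2 of 6 of myeloid cells (Cd14 and Mpo) and 3 of 3 of erythroid cells had one in all 4 libraries. The erythroid gene Klf1 (9.29%, 13.3%, 8.68% and 11.8%) and Mpo (15.5%, 33.2%, 16% and 31.6%) ranked above Cd4 in every library. Among B cell genes, Pax5 had one in each library, with 15.6% and 18.1% of peaks above it without and 12.3% and 15% with IL-4. Blnk had one in both iTreg+IL-4 libraries alone (80.1% and 70%), Cd79b in iTreg+IL-4 replicate 2 alone (87.7%), and Ms4a1 in every library but iTreg replicate 1. Cd79a, Lyz2, Csf1r, Adgre1 and Ncr1 had no promoter peak in any library. Open promoters are not expression, and the part of other cells in the Ikaros family values was not tested. The lists covered 29.3 to 42.1 megabases, and iTreg replicate 2 was the smallest by both number and bases of peaks.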

How the data were processed

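The study made 4 ATAC-seq libraries on the BGISEQ-500, mapped the reads to mm10 with Bowtie2 (2.2.5) and called peaks in each library with MACS2 (2.1.2). bedtools (2.16.2) is also named in the submitters' processing notes, and replicates were not pooled. The peak caller's parameters, the shift for transposase insertion and the removal of duplicates are not given in the sources used here. Their effect on heights and q-values was not tested. The lists have no header. From their values, column 4 of the authors was read as the −log10 q-value (its lowest value corresponds to a q-value of 0.05) and column 5 as the deposited pileup height, a signal that is not scaled for depth. Starts were taken to count from 0 and are printed counting from 1, so a printed start may be off by 1 base if the lists count from 1.

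Peaks sharing at least 1 base were merged over the libraries, and each region took its best peak per list. Ranks were computed within a list, by −log10 q (main) or by height. Start sites and gene records were those of GENCODE M21, RefSeq promoters were used as a second annotation (2 of the 5 members are in that table), and sequence came from GRCm38. Exon and intron numbers refer to the principal transcript. Values per library were compared by exact two-sided permutation tests over the 4 libraries, adjusted by the Benjamini-Hochberg method over the 5 loci. The replicate numbers are shared between the groups and no label says that they pair the samples, so the main comparisons have no block. Regions named are all those at a member's own start sites and all those called in both libraries of one group and neither of the other. The 3 best distal regions per window by their weakest library were named too, as were the 5 largest non-overlapping rank differences per direction and class. Some regions were named outside these rules and chosen after their values were seen. They are the RefSeq promoter region in intron 1 of Ikzf1, named for a second annotation, and 2 Ikzf2 regions named for a second ranking. The latter lie 1.8 kb upstream of the 5′ end and over exon 8. The Ikzf3 region in intron 7 was also named outside these rules, for its mean rank. The members and lists were chosen with earlier results of these data known. Counting and ranking were tested on simulated lists. Python 3.11.15, numpy 2.4.6, pandas 2.3.3, scipy 1.17.1 and matplotlib 3.10.9 were used. The lists hold no reads, so the depth is unknown and no interval is given for a peak call. Alternatives kept fewer peaks, other windows, another overlap or another ranking, or left out a library. Expression was not analysed here. A further promoter sequence and a further marker gene are not reported here.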

Additional observations from a re-analysis of the deposited data

How the results depend on the processing

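Of 122 alternative values, 88 kept their direction, stayed within 1.5 times of the count or, for motif shares, within the interval. With the upper 50% of each list, regions called in all 4 libraries numbered 38, regions called only with IL-4 and only without IL-4 0 each, and regions nearer the top with IL-4 7. With lists of equal length, 2 regions were called only with IL-4 and 10 were further from the top. Gene records without flanks gave 39 regions called in all 4 libraries and 0 further from the top, and flanks of 100 kb gave 5 further from the top. These counts change with the number of peaks or the length searched by construction. Ranked among regions called in all 4 libraries, an alternative added after the data were seen together with the RefSeq annotation, 8 were further from the top. The 4 analyses that each left out a library gave differences of -1.5 to 19.5 regions and -829 to 12018 bases per library, negative without iTreg replicate 2 only. They gave 68 to 73 regions called in all libraries kept, 9 to 13 called only with IL-4, 1 to 8 called only without, 15 to 49 nearer the top and 6 to 30 further from it. For the own promoters they gave -3.16 to 4.05 points at Ikzf2, -3.08 to 0.663 at Ikzf4 and -0.871 to 0.0256 at Ikzf5, where the sign turned without either library numbered 1 at Ikzf2 and without iTreg replicate 2 at Ikzf4 and Ikzf5. They gave 1.09 to 9.18 points at Ikzf1 and -11.7 to -5.54 at Ikzf3. With 1 library left in a group, non-overlap is easier to reach by construction. Windows of 400 bases hold more letters, and motif shares in them were higher or, for the CTCF-type motif in promoter regions, 0 in both.

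With the replicate number as a block, 28 regions (41.2%, series 43.4%) were nearer the top with IL-4 in both pairs and 7 (10.3%, series 12.3%) further, against 11 and 3, a condition that is easier to meet. The blocked difference was 9 regions and 5594.5 bases per library (exact sign permutation p = 0.5, the smallest 2 pairs allow). Over the 68 regions called in all 4 libraries, deviations of same-numbered libraries correlated with r = 0.605, against 0.499 over the series, which 2 numbers cannot establish as pairing. The depth of every library is unknown, which limits all calls.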
